A study of Homo sapiens with 6 samples.

Results

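The transcripts of 10 chemokine genes (CCL2, CCL20, CCL28, CXCL1, CXCL2, CXCL3, CXCL5, CXCL10, CXCL16 and CX3CL1) were followed through 6 subcutaneous xenograft tumours, out of 57773 genes in the deposited count table. The genes were selected from the chemokine family by symbol, with the doxycycline contrast of these tumours already known. Their values in that contrast are therefore a description. The other gene lists below were also chosen with earlier results of these data known. Where the fit over all genes called a member or a listed gene, this is stated as a record of that fit. It is not evidence about the gene. The tumours grew in nude mice injected with PATU cells, a human pancreatic ductal adenocarcinoma line, carrying a short hairpin RNA against ME3 that is switched on by doxycycline (dox). In 2 tumours the mice received dox, and in 4 tumours they did not. All 6 tumours carry the hairpin construct in 1 cell line, and no tumour with another hairpin is in the design, so dox itself, hairpin induction and lower ME3 cannot be told apart. Nude mice lack a thymus but keep macrophages, neutrophils, fibroblasts and vessels, so RNA of host cells can be in the tumours, and how mouse reads were handled is not given in the sources used here.

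Chemokines are small secreted proteins that bind G protein-coupled receptors on leukocytes and draw them along a gradient. The families are named by the spacing of their conserved cysteines: CC chemokines such as CCL2 mostly act on monocytes and lymphocytes, CXC chemokines with an ELR motif such as CXCL1 act on neutrophils, and CXCL10 acts on activated T cells. CXCL16 and CX3CL1 are made as membrane-bound proteins on a mucin-like stalk and are shed by proteases. In epithelial cancers several of these genes are classical targets of NF-kappaB, and CXCL10 is a classical target of interferon.

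Library totals ranged from 23855338 to 26885699 counts, and 3 counts, the smallest level treated as detectable, correspond to 0.112 to 0.126 CPM, that is, counts per 1000000 counts of a library. The levels below also use TMM factors, which adjust library sizes for composition. ME3, the gene the hairpin targets, was at 33.3 and 28.5 CPM in on-dox tumours 1 and 2, against 44.2, 44.1, 38.6 and 37.9 CPM in off-dox tumours 1 to 4. The on-dox levels lay below all off-dox levels, and the log2 fold change was -0.41 (SE 0.12). This did not pass over all genes (edgeR quasi-likelihood adjusted p = 0.148), and the two-sided exact permutation test gave p = 0.0667, the smallest that 2 against 4 tumours allow. Of the epithelial markers EPCAM, KRT8 and KRT18 were present in every tumour, while KRT19 had 1 count in all. On-dox tumour 1 stood apart in MALAT1, NEAT1 and mitochondrial mRNAs. They summed to 43820 CPM there and to 21182 CPM in on-dox tumour 2, against 17251 to 25593 CPM off dox. MALAT1 and NEAT1 made up most of that sum, at 28554 and 10242 CPM in on-dox tumour 1. RNA quality itself was not measured here, and the cause of the difference was not tested.

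CCL2, CCL20 and CXCL10 were higher in both on-dox tumours than in all off-dox tumours, with fitted differences of 7.13-fold for CCL2, 2.32-fold for CCL20 and 10.3-fold for CXCL10. CXCL16 was higher by a smaller amount without overlap, CX3CL1 was high in 1 of the 2 on-dox tumours, and the neutrophil attractants CXCL1, CXCL2 and CXCL3 overlapped between the groups, as did CCL28. CXCL5 (ENSG00000163735), another neutrophil attractant, had under 10 counts in total: it had 0 in all 6 tumours, which allows up to 0.126 CPM. It was the 1 member of 10 under that limit. The other 9 passed the low-count filter of the fit over 21308 genes. Of these 9, the fit called 3 higher on dox and 0 lower at an adjusted p under 0.05 (CCL2, CCL20 and CXCL10), where it called 0.465% of all tested genes higher, 0.591% lower and 1.06% in either direction. Over all genes, 14.3% had an unadjusted p under 0.05 by edgeR, limma voom called 0.864%, and DESeq2 called 4.55% of the 15923 genes to which it gave an adjusted p. The groups did not overlap for 4 of the 9, all higher on dox, where 11.5% of all tested genes were higher without overlap and 11.5% lower. The median log2 fold change of the 9 was 0.57, beside -0.003 over all tested genes. Because these genes were chosen with the contrast known, neither the counts nor the median are read further.

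**Figure D1:**
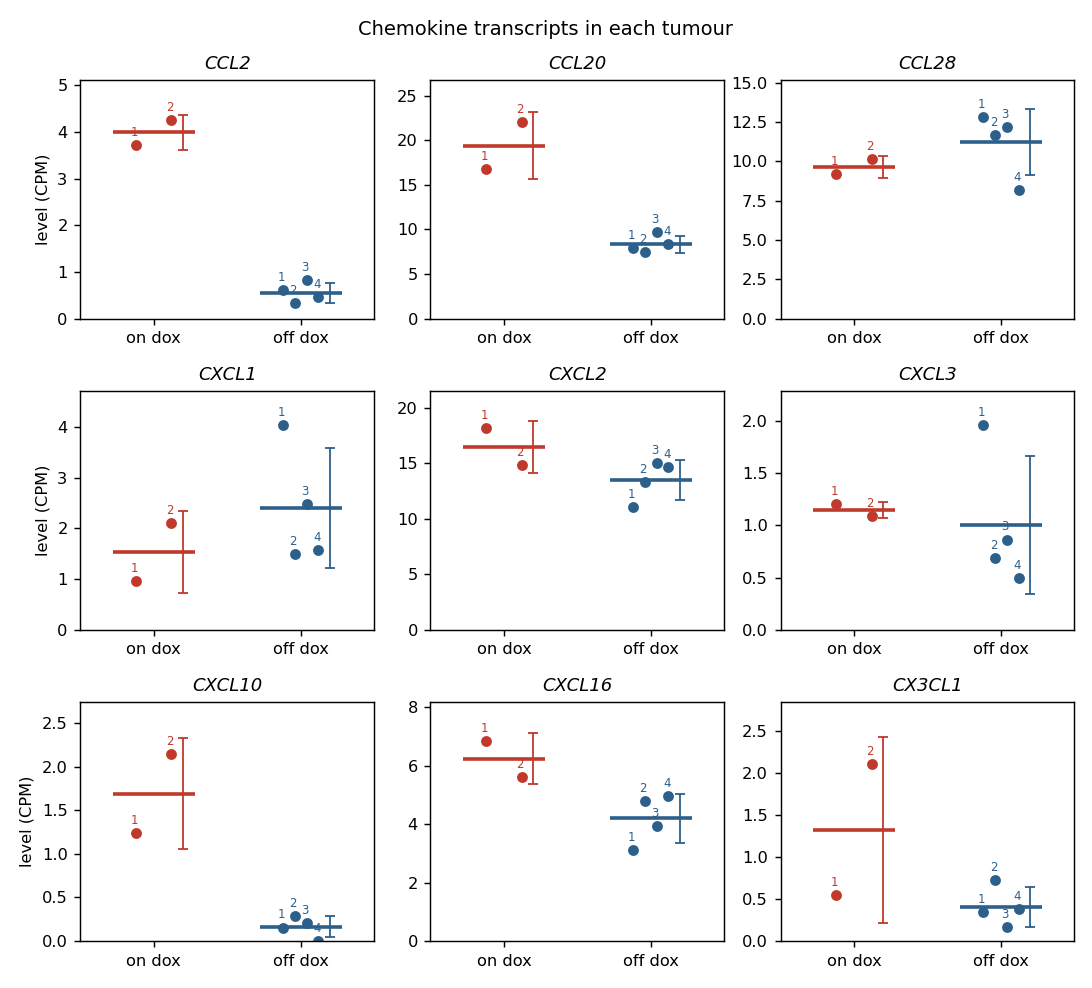
Level in CPM of the 9 chemokines with counts, 1 panel each. Each point is a tumour with its number, the line is the group mean and the bar its SD (n = 2 on dox, n = 4 off dox). CCL2, CCL20, CXCL10 and CXCL16 have both on-dox points above all off-dox points; CXCL1 and CXCL3 have off-dox tumour 1 on top.

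CCL2 (ENSG00000108691), the main attractant of monocytes through the receptor CCR2, had 96 and 105 counts in the on-dox tumours, against 16, 8, 20 and 12 counts in the off-dox tumours. These are levels of 3.72 and 4.25 CPM on dox, against 0.616, 0.324, 0.823 and 0.458 CPM off dox. Both on-dox tumours lay far above every off-dox tumour and close to each other. CCL2 averaged 3.99 ± 0.378 CPM on dox (SD, n = 2) and 0.555 ± 0.215 CPM off dox (SD, n = 4). The log2 fold change was 2.83 (SE 0.35, 95% interval 2.07 to 3.60), a 7.13-fold difference. It ranged from 2.65 to 3.08 with any 1 tumour left out and was 2.93 without on-dox tumour 1. The exact 95% Poisson interval of the lowest on-dox count was 77.8 to 117 and that of the highest off-dox count was 12.2 to 30.9; such intervals cover counting error only. In bulk tumour RNA, more cells of a type and more RNA per cell cannot be told apart. Macrophages can also make CCL2, and the summed level of 12 host myeloid markers was 39.1 and 51.9 CPM on dox, against 25.3 to 50.1 CPM off dox. In that list TYROBP was at 0 and CD68 had 4 counts in all. Of 8 tested genes 6 had a log2 fold change above 0, beside 49.6% of all tested genes. CD74, named after its values were seen, was at 3.25 and 8.51 CPM on dox, against 1.42 to 3.28 CPM off dox (edgeR adjusted p = 0.138). CD74 was the 1 gene of that list called by DESeq2 (adjusted p = 0.0138), beside 4.55% of all genes to which it gave an adjusted p. The limma voom adjusted p of CD74 was 0.197. These markers were counted on the human genome and host cells are mouse cells, so the sums may not measure them. The part of host cells in the CCL2 level was not tested.

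CCL20 (ENSG00000115009), which draws CCR6-bearing dendritic and T cells to epithelia, was at 16.7 and 22.0 CPM on dox, against 7.96, 7.46, 9.67 and 8.32 CPM off dox. The off-dox tumours lay within a narrow band, and the lower on-dox tumour was well above it. CCL20 averaged 19.4 ± 3.75 CPM on dox (SD, n = 2) and 8.35 ± 0.947 CPM off dox (SD, n = 4), a log2 fold change of 1.21 (SE 0.16, 95% interval 0.85 to 1.58). Leaving out on-dox tumour 2 gave 1.00, and leaving out on-dox tumour 1 gave 1.40. With 1820 counts over the 6 tumours, CCL20 was the member with the second highest total, after CXCL2 with 2203.

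CXCL10 (ENSG00000169245), an interferon-induced ligand of CXCR3, had 32 and 53 counts on dox, against 4, 7, 5 and 0 counts off dox. Its level was 1.24 and 2.15 CPM on dox, against 0.154, 0.284, 0.206 and 0 CPM off dox. The groups did not overlap, and no off-dox tumour had more than 7 counts. The exact 95% Poisson interval was 21.9 to 45.2 counts for on-dox tumour 1 and 2.81 to 14.4 counts for off-dox tumour 2, the highest of its group. The log2 fold change was 3.37 (SE 0.65, 95% interval 1.94 to 4.80). The call of CXCL10 held in 1 of 6 fits with a tumour left out, the fit without off-dox tumour 4, while the log2 fold change stayed between 2.92 and 3.78 in those fits. It was also lost with limma voom, and DESeq2 gave the gene no adjusted p. CXCL11, another interferon-induced ligand of CXCR3 and the gene next to CXCL10 on chromosome 4, was at 0.426 and 1.94 CPM on dox, against 0.0769, 0.203, 0.617 and 0.0381 CPM off dox (log2 fold change 2.34, SE 0.83, adjusted p = 0.23). CXCL11 had 11 and 48 counts on dox, against 2, 5, 15 and 1 counts off dox. Off-dox tumours 1 and 4 were thus under the 3 counts treated as detectable. For CXCL11, leaving out on-dox tumour 2 gave a log2 fold change of 0.87, and leaving out off-dox tumour 3 gave 3.44. CXCL9, the remaining ligand of that receptor, had no counts.

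The region just before the start of CXCL10 holds a match to the word of the interferon response and a match to that of NF-kappaB, and is shown to set it beside the other members. The promoter sequences are those of RefSeq on GRCh38.p14, a build other than the hg19 named for the counts. The NF-kappaB word, the kappa-B consensus, was taken as GGGRNYYYCC on either strand (R is A or G, Y is C or T, N is any base). Words that differ from it in any base are not marked. The 200 bases from -250 to -51 relative to the start (chr4:76023548-76023747, minus strand) are given 5′ to 3′, with a match to the interferon-stimulated response element (GAAANNGAAA) and then a match to the kappa-B consensus in capitals.
CXCL10: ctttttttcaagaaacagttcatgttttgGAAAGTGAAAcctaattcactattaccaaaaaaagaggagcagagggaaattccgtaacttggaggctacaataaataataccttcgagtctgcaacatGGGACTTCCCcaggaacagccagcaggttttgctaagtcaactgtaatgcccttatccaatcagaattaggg

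CXCL1 (ENSG00000163739), CXCL2 (ENSG00000081041) and CXCL3 (ENSG00000163734) are close paralogs on chromosome 4 that attract neutrophils through CXCR2. CXCL2 was at 18.2 and 14.9 CPM on dox, against 11.1, 13.3, 15.1 and 14.7 CPM off dox, a log2 fold change of 0.29 (SE 0.16, 95% interval -0.07 to 0.64). On-dox tumour 1 was the highest of the 6, and on-dox tumour 2 lay inside the off-dox range. CXCL1 was at 0.968 and 2.11 CPM on dox, against 4.04, 1.50, 2.47 and 1.56 CPM off dox (log2 fold change -0.64, SE 0.47, 95% interval -1.68 to 0.40). Off-dox tumour 1 was the highest and on-dox tumour 1 the lowest. For CXCL1, leaving out on-dox tumour 2 gave -1.31, and leaving out on-dox tumour 1 gave -0.18. CXCL3 was at 1.20 and 1.09 CPM on dox, against 1.96, 0.689, 0.864 and 0.496 CPM off dox (log2 fold change 0.19, SE 0.51, 95% interval -0.94 to 1.32). Its on-dox levels were close to each other and were exceeded by off-dox tumour 1 alone. Leaving out off-dox tumour 1 gave 0.75, and leaving out off-dox tumour 4 turned the sign, at -0.03. The intervals of CXCL1 and CXCL3 are too wide to show that the groups were alike.

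The paralogs did not keep a fixed proportion. Per kilobase of exon, the CXCL2 level was 16.2 and 6.10 times that of CXCL1 in on-dox tumours 1 and 2, against 2.37, 7.66, 5.27 and 8.11 times in off-dox tumours 1 to 4. On-dox tumour 1 and off-dox tumour 1 were at the ends of that order. CXCL8, encoding interleukin 8, a neutrophil attractant of the same gene cluster, was at 2.83 and 6.93 CPM on dox, against 6.69, 4.99, 4.94 and 2.48 CPM off dox (log2 fold change 0.03, SE 0.41, adjusted p = 0.982). Its sign depended on single tumours: it was -0.76 with on-dox tumour 2 left out and 0.54 with on-dox tumour 1 left out. Off-dox tumour 1 was the highest off-dox tumour for CXCL1, CXCL3 and CXCL8, and the lowest for CXCL2. The same tumour had the highest sum of 8 fibroblast markers, 805 CPM, against 267, 297 and 147 CPM in off-dox tumours 2 to 4, while on-dox tumours 1 and 2 were at 132 and 322 CPM. On-dox tumour 1, with the lowest fibroblast sum, also had the lowest CXCL1. In that list LUM had 3 counts in all, and COL1A1, COL1A2 and COL3A1 made up most of the sum. Of 7 tested genes 6 had a log2 fold change below 0, where 49.6% of all tested genes were above 0. The part of fibroblasts in the CXCL1 level was not tested. The paralogs share a part of their sequence. Of all words of 50 bases, 5.73% in the CXCL1 transcript, 9.24% in CXCL2 and 5.26% in CXCL3 occur in a transcript of another gene, in each case the other paralogs. The words of CCL2, CCL20 and CXCL10 were found in no other human gene. Only exact matches in human transcripts were counted, so confusion with mouse reads or through mismatches was not tested.

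The 80 bases from -120 to -41 before the start of CXCL1 (chr4:73869273-73869352, plus strand), CXCL2 (chr4:74099236-74099315, minus strand), CXCL3 (chr4:74038730-74038809, minus strand) and CCL20 (chr2:227813722-227813801, plus strand) are shown because they hold the kappa-B match, in capitals, in genes with unlike values.
CXCL1: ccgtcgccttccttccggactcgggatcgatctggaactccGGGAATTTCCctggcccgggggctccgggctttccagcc
CXCL2: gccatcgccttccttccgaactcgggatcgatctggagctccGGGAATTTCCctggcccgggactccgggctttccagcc
CXCL3: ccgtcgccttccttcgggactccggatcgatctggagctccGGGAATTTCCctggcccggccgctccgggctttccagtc
CCL20: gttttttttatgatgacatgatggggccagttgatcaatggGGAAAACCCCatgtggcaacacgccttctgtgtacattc

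The windows of CXCL1 and CXCL2 were 92.6% identical, those of CXCL1 and CXCL3 92.5% and those of CXCL2 and CXCL3 88.9%. The word GGGAATTTCC was the same in CXCL1, CXCL2, CXCL3 and CXCL5, and the last of these genes had no counts. In the CCL20 window the consensus is met on the other strand. The table held a promoter for 7 of the 10 members, and CCL2, CXCL16 and CX3CL1 had no entry. In the window from 250 bases before to 50 bases after the start, on both strands, the kappa-B consensus was matched in 6 of the 7, all but CCL28, where 7.73% of 35116 promoters hold a match. The response element GAAANNGAAA was matched in CXCL10 alone (3.57% of all promoters), TTGCNNAA, a C/EBP word, in CXCL2 alone (10.5%), and TGANTCA, the AP-1 word, in none of the 7 (7.71%). A match is a description of the letters in this window and not evidence of binding. The kappa-B match was found in CCL20 and CXCL10, which had higher on-dox levels, and in CXCL1, CXCL2 and CXCL3, whose groups overlapped. CXCL5, without counts, held it too. Any link of the match to the levels was not tested, and CCL2 could not be looked at.

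Many chemokine mRNAs carry AU-rich elements in the 3′ UTR, words to which decay factors such as tristetraprolin (ZFP36) bind. The nonamer TTATTTATT was found in the 3′ UTR of 5 of the 10 members in GENCODE release 29, where 9.30% of 13349 tested protein-coding genes hold it. UTR length was not matched in that share. With overlapping copies counted, CXCL2 held 5, CXCL1 held 3, and CXCL3, CCL28 and CX3CL1 held 1 each. The 30 bases around the first copy are shown with the nonamers in capitals, because these paralogs differ in how often the word is repeated.
CXCL1: agtcttctatTTATTTATTTATTcattagt
CXCL2: agtcttctatTTATTTATTTATTTATTtat
CXCL3: atgtcagttgTTATTTATTcaaattatctc

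The members CCL2, CCL20, CXCL5, CXCL10 and CXCL16 held no copy, as most tested genes do. The 3′ UTRs of CCL2 and CCL20 were the shortest of the members, at 376 and 481 bases. Any link of the word to the levels was not tested. Of 8 genes that control the decay of chemokine mRNA, 0 were called (1 had an unadjusted p under 0.05 by edgeR, and DESeq2 and limma voom called 0). The 3 with the smallest p were ZFP36L2, a relative of tristetraprolin, at 33.8 and 31.6 CPM on dox, against 23.5, 24.6, 26.1 and 26.9 CPM off dox (log2 fold change 0.37, adjusted p = 0.151), ZFP36L1 (log2 fold change -0.26, adjusted p = 0.396) and the endonuclease gene ZC3H12A (log2 fold change 0.27, adjusted p = 0.446). The log2 fold change of ZFP36L1 was -0.04 with on-dox tumour 2 left out and -0.52 with on-dox tumour 1 left out.

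CCL28 (ENSG00000151882), a mucosal chemokine that binds CCR10 and CCR3, was at 9.18 and 10.2 CPM on dox, against 12.8, 11.7, 12.2 and 8.20 CPM off dox. Both on-dox tumours lay below off-dox tumours 1 to 3 and above off-dox tumour 4. The log2 fold change was -0.22 (SE 0.19, 95% interval -0.65 to 0.21). CCL28 and CXCL1 were the 2 of 9 members with a log2 fold change below 0.

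CXCL16 (ENSG00000161921), the membrane-bound ligand of CXCR6, which also acts as a scavenger receptor, was at 6.86 and 5.63 CPM on dox, against 3.12, 4.78, 3.95 and 4.96 CPM off dox. The groups did not overlap, but the lower on-dox tumour was close to off-dox tumours 2 and 4. CXCL16 averaged 6.24 ± 0.867 CPM on dox (SD, n = 2) and 4.20 ± 0.848 CPM off dox (SD, n = 4), a log2 fold change of 0.57 (SE 0.24, 95% interval 0.04 to 1.10), which was not among the calls over all genes. Leaving out on-dox tumour 1 gave 0.42. Exons of MED11 on the opposite strand cover 3.04% of the exonic bases of CXCL16, and the strand setting of the counting is not given.

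CX3CL1 (ENSG00000006210), fractalkine, the membrane-bound ligand of CX3CR1, had 14 and 52 counts on dox, against 9, 18, 4 and 10 counts off dox. These are 0.542 and 2.11 CPM on dox, against 0.346, 0.730, 0.165 and 0.381 CPM off dox. On-dox tumour 2 was above every other tumour, and on-dox tumour 1 lay within the off-dox range. The log2 fold change of 1.69 (SE 0.61, 95% interval 0.34 to 3.05) rested on on-dox tumour 2: it was 0.41 without that tumour and 2.37 when on-dox tumour 1 was left out. Endothelial cells are a known source of CX3CL1, and 7 endothelial markers summed to 31.7 and 23.2 CPM on dox, against 13.4 to 24.3 CPM off dox. ENG made up most of that sum, at 26.6 and 18.2 CPM on dox, against 7.16 to 18.9 CPM off dox (log2 fold change 0.69, adjusted p = 0.325). The other 5 tested markers had log2 fold changes below 0. CDH5 at -2.14 (adjusted p = 0.297) and TEK at -1.15 (adjusted p = 0.244) were lower without overlap, as were 11.5% of all tested genes. Both had few counts. CDH5 had 8 and 0 counts on dox, against 9, 18, 16 and 29 counts off dox. TEK had 9 and 12 counts on dox, against 25, 25, 24 and 20 counts off dox. The part of endothelial cells in the CX3CL1 level was not tested. The proteases that shed CXCL16 and CX3CL1, ADAM10 and ADAM17, had log2 fold changes near 0, at 0.14 for ADAM10 (SE 0.10, adjusted p = 0.594) and 0.03 for ADAM17 (SE 0.09, adjusted p = 0.918). Of 5 tested proteases that shed or trim chemokines 0 were called by edgeR (1 had an unadjusted p under 0.05), 1 by DESeq2, beside 4.55% of all genes, and 0 by limma voom. DPP4, which clips CXCL10, was at 0.271 and 0.527 CPM on dox, against 1.15, 2.84, 2.68 and 0.763 CPM off dox (log2 fold change -2.21, SE 0.63, edgeR adjusted p = 0.137), and was the gene DESeq2 called (adjusted p = 0.0106). The matrix metalloproteinases MMP2 (log2 fold change -0.78, adjusted p = 0.525) and MMP9 (-1.19, adjusted p = 0.504) varied widely between tumours. With on-dox tumour 2 left out they were -1.97 for MMP2 and -0.47 for MMP9, and with on-dox tumour 1 left out they were -0.13 for MMP2 and -2.80 for MMP9.

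**Figure D2:**
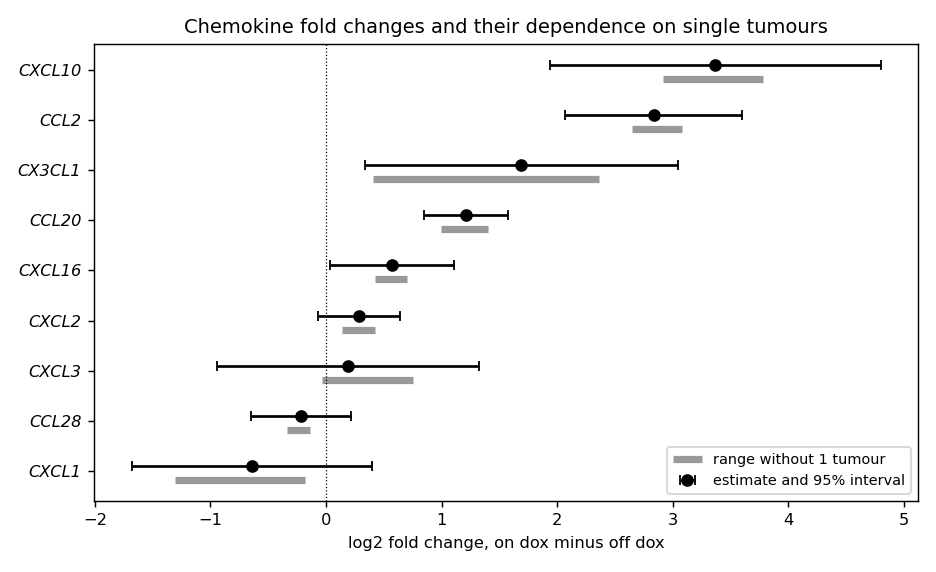
Log2 fold change (on dox minus off dox, x axis) of the 9 chemokines with counts. Points are estimates of the fit over all genes with their 95% interval, and grey bars span the estimates with 1 tumour left out at a time. CCL2 and CXCL10 lie furthest to the right, at 2.83 and 3.37, and the bar of CX3CL1 is the widest, from 0.41 to 2.37.

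Levels of different genes were compared as CPM per kilobase of exon. In on-dox tumours CCL20 was the highest, at 12.2 ± 2.35 CPM per kilobase, followed by CXCL2 at 11.0 ± 1.56 (SD, n = 2), and the levels of these genes overlapped. In off-dox tumours the order of the same genes was the reverse, with CXCL2 at 9.02 ± 1.20 and CCL20 at 5.24 ± 0.594 CPM per kilobase (SD, n = 4), and every off-dox CXCL2 level was above every off-dox CCL20 level. CCL28 followed off dox at 2.48 ± 0.460, then CXCL1 at 1.85 ± 0.913 and CXCL16 at 1.50 ± 0.303 CPM per kilobase, and each of these overlapped with the next. CXCL3 at 0.452 ± 0.296, CCL2 at 0.280 ± 0.108 and CXCL10 at 0.137 ± 0.102 CPM per kilobase came next, each overlapping with the next, and CX3CL1 was the lowest with counts, at 0.068 ± 0.039. Every off-dox level of CXCL16 was above every off-dox level of CXCL3. CCL2 was at 2.01 ± 0.190 CPM per kilobase on dox (SD, n = 2), which put it in place 5 of 10 there, against place 7 off dox. CXCL10 was at 1.44 ± 0.546 CPM per kilobase on dox, place 6, against place 8 off dox. With the length of the longest transcript instead, the off-dox order was the same and CCL2 took place 3 on dox. Summed over the members, the level was 31.4 and 34.4 CPM per kilobase in the on-dox tumours, against 20.8, 19.8, 23.1 and 20.3 in the off-dox tumours. CCL20 and CXCL2 together made up most of every sum: CCL20 contributed 33.4% and 40.1% on dox, against 23.6% to 26.2% off dox, and CXCL2 contributed 38.6% and 28.8% on dox, against 35.4% to 48.2% off dox. CCL2 contributed 5.96% and 6.22% on dox, against 0.823% to 1.79% off dox.

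**Figure D3:**
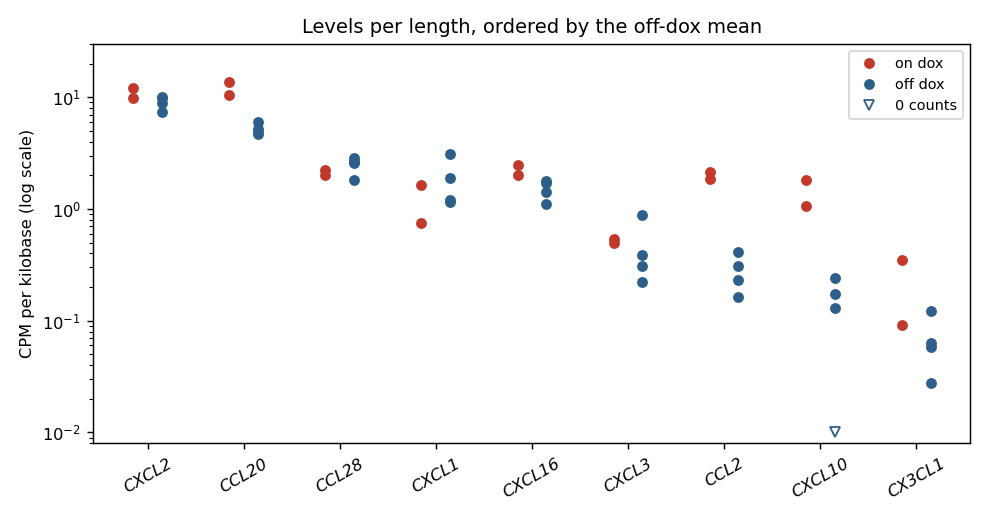
Level per length of the 9 chemokines with counts, in CPM per kilobase of exon on a log axis, ordered by the off-dox mean. Each point is a tumour, on dox to the left and off dox to the right of each gene, and the open triangle marks the tumour with 0 counts of CXCL10. CXCL2 and CCL20 are above all others in every tumour.

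Most other chemokines with a row had few or no counts on the human genome. Of 38 symbols listed, 26 had a row in the table. The other 12, among them CCL3, CCL4 and CCL5, were not found by symbol and were not analysed here. Of the 26, 12 had no counts, among them CCL7, CCL8 and CXCL9, 19 in all had under 10, and 5 were tested. None of the 5 was called by edgeR or limma voom, and 2 had an unadjusted p under 0.05 by edgeR. DESeq2 called none of the 3 to which it gave an adjusted p, and it gave none to the 2 with the small p. These 2 were CCL17, a ligand of CCR4, at 0.387 and 0.567 CPM on dox, against 0.115, 0.0811, 0.165 and 0.153 CPM off dox (log2 fold change 1.85, SE 0.60, adjusted p = 0.19), and CXCL11, given above. CCL17 had 10 and 14 counts on dox, against 3, 2, 4 and 4 counts off dox. CXCL12, which stroma produces, was at 0.852 and 1.82 CPM on dox, against 0.962, 5.19, 4.53 and 1.26 CPM off dox (log2 fold change -1.15, adjusted p = 0.479). Leaving out on-dox tumour 2 gave -1.80 for CXCL12, and leaving out on-dox tumour 1 gave -0.70.

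Most receptors of the members were at or near 0 in these counts on the human genome. Host leukocytes are mouse cells, and how mouse reads were handled is not given, so low counts do not show that such cells were few. CXCR1 had no counts, CCR6, the receptor of CCL20, had 2 counts in all, and CXCR2, the receptor of CXCL1, CXCL2 and CXCL3, had 5. CXCR3 had 18 counts and CCR3 had 16, and neither was tested. CCR2, the receptor of CCL2, was at 0.542 and 0.365 CPM on dox, against 0.115, 0.608, 0.535 and 0.572 CPM off dox (log2 fold change -0.01, SE 0.64, adjusted p = 0.997), with the sign turning to 0.24 when on-dox tumour 2 was left out. CCR10 showed a difference of -0.34 on the log2 scale (SE 0.61, adjusted p = 0.855) and CX3CR1 at 0.89 (SE 0.86, adjusted p = 0.698; 1.74 leaving out off-dox tumour 1 and 0.35 leaving out on-dox tumour 2). CXCR6, the receptor of CXCL16, was at 9.92 and 4.82 CPM on dox, against 5.81, 7.50, 5.80 and 6.18 CPM off dox (log2 fold change 0.22, SE 0.27, adjusted p = 0.771). Its sign depended on on-dox tumour 1, without which the log2 fold change was -0.39. Of 18 receptors 7 were tested and 0 were called by edgeR or limma voom, with 1 at an unadjusted p under 0.05 by edgeR. DESeq2 gave no adjusted p to 3 of them, CCR2, CCR10 and CX3CR1, and called 0 of the others. The receptor with an unadjusted p under 0.05 by edgeR was CXCR4, which binds CXCL12. It was at 4.46 and 5.10 CPM on dox, against 12.1, 10.1, 8.15 and 4.77 CPM off dox (log2 fold change -0.88, SE 0.32, edgeR adjusted p = 0.244). CCR7, a homing receptor of lymphocytes and dendritic cells, was at 18.9 and 10.9 CPM on dox, against 10.3, 12.8, 13.8 and 9.12 CPM off dox (log2 fold change 0.37, adjusted p = 0.51, but -0.08 when on-dox tumour 1 was left out). Of 5 atypical receptors, which take up chemokines without signalling through G proteins, 2 were tested and 0 called by any of the 3 tools. ACKR3 showed a difference of -0.88 on the log2 scale (SE 0.34, adjusted p = 0.267). ACKR4 was at -0.10 (SE 0.44, adjusted p = 0.945), but at 0.47 leaving out on-dox tumour 2 and at -1.09 leaving out on-dox tumour 1. ACKR3 was the 1 with an unadjusted p under 0.05. Lymphoid markers were low: 6 genes summed to 2.48 and 1.09 CPM on dox, against 0.885 to 2.63 CPM off dox, and CD3D was at 0. The neutrophil list of 6 genes summed to 1.47 and 0.689 CPM on dox, against 0.462 to 2.22 CPM off dox, with FCGR3B and MPO at 0. The limit on host cells holds for the lymphoid and neutrophil sums too, and for the myeloid, fibroblast and endothelial sums given above.

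Among cytokines that induce chemokines, TNF, the classical activator of NF-kappaB, was higher. It was at 7.90 and 17.6 CPM on dox, against 2.08, 2.59, 2.26 and 3.85 CPM off dox, and its log2 fold change was 2.24 (SE 0.32, edgeR adjusted p = 0.0136). Leaving out on-dox tumour 2 gave 1.54, and leaving out on-dox tumour 1 gave 2.70. TNF was the 1 of 8 tested genes of this list called, beside 1.06% of all tested genes. In 5 of the 8, both on-dox tumours were above all off-dox tumours, beside 11.5% of all tested genes. This list and the NF-kappaB and interferon lists below were chosen with earlier results of these data known. Their calls and counts are therefore a description. IL1A, encoding interleukin 1 alpha, was at 17.8 and 23.5 CPM on dox, against 14.8, 10.5, 12.2 and 8.35 CPM off dox, without overlap (log2 fold change 0.85, SE 0.21, adjusted p = 0.0913; DESeq2 called it, with an adjusted p of 0.00545). IL1B was at 8.10 and 5.71 CPM on dox, against 4.19, 5.76, 4.28 and 5.49 CPM off dox (log2 fold change 0.49, SE 0.23, adjusted p = 0.377). IFNG had no counts and IFNB1 had 8 in all. TNF and CXCL10 were higher in on-dox tumour 2 than in on-dox tumour 1, as was CX3CL1, while CXCL2 and CXCL16 were lower there.

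Of 14 subunits, inhibitors and activating kinases (CHUK and IKBKB) of NF-kappaB, 0 were called by edgeR, DESeq2 or limma voom. Of these 14, 4 had an unadjusted p under 0.05 by edgeR, beside 14.3% of all genes. The log2 fold change was above 0 in 12, beside 49.6% of all genes, with a median of 0.20. NFKBIA, the inhibitor that NF-kappaB itself induces, was at 253 and 295 CPM on dox, against 210, 232, 225 and 205 CPM off dox (log2 fold change 0.33, SE 0.10, adjusted p = 0.165). NFKB2 was at 196 and 191 CPM on dox, against 149, 168, 153 and 171 CPM off dox (log2 fold change 0.27, SE 0.09, adjusted p = 0.222), and NFKBIB, another inhibitor, was at -0.37 on the log2 scale (SE 0.12, adjusted p = 0.186). In none of these 3 genes, which had the smallest p of the list, did the groups overlap. Of the 14, 4 were higher and 1 lower without overlap, beside 11.5% of all tested genes higher and 11.5% lower.

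In the interferon route to CXCL10, IRF1, a transcription factor induced by interferon and TNF, was the 1 of 12 genes called, beside 1.06% of all tested genes. It was at 80.2 and 93.8 CPM on dox, against 56.7, 63.7, 59.6 and 57.0 CPM off dox, and its log2 fold change was 0.55 (SE 0.10, edgeR adjusted p = 0.0329). That call held in 1 of 6 fits with a tumour left out, with log2 fold changes of 0.43 to 0.66. In the list, 8 of 12 genes were above 0, beside 49.6% of all tested genes, and the median was 0.12.

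**Figure D4:**
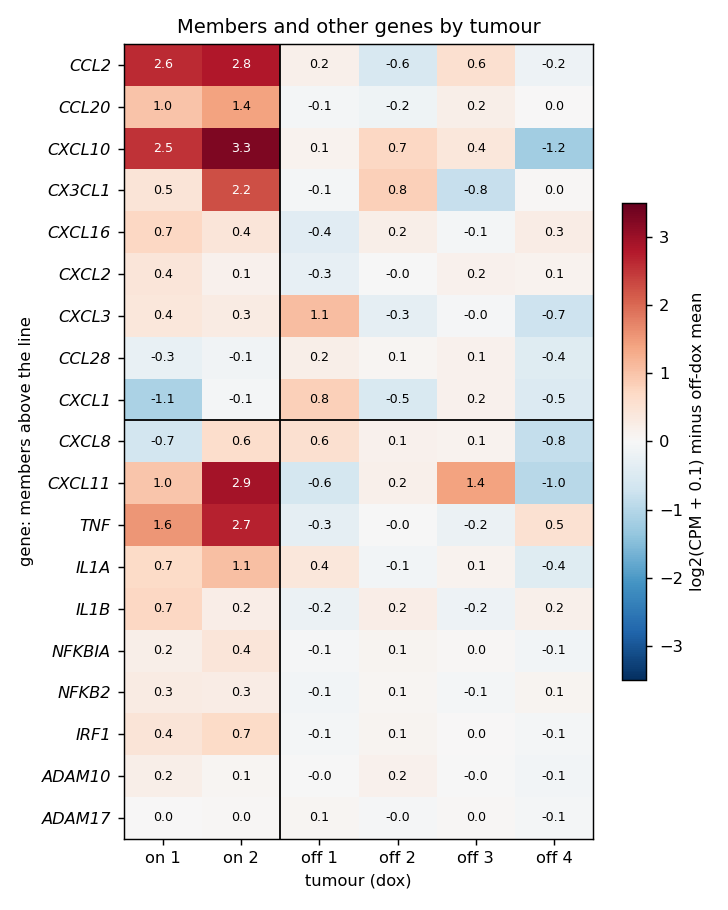
Difference of log2(CPM + 0.1) from the off-dox mean, for 9 chemokine members above the line and 10 other genes of the pathway below it, in each tumour (on dox left of the vertical line). CCL2, CCL20, CXCL10 and TNF are higher in both on-dox tumours, CX3CL1 and CXCL11 mainly in on-dox tumour 2, and CXCL1 is lowest in on-dox tumour 1.

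Across the 6 tumours, the members did not follow 1 pattern. As a description over 6 points that share the group difference, Pearson's r of log2 CPM was 0.98 between CCL2 and CCL20, 0.83 between CCL2 and CXCL10 and 0.84 between CCL20 and CXCL10, but -0.81 between CXCL1 and CXCL2 and 0.51 between CXCL1 and CXCL3. Among 11463 protein-coding genes with a mean above 1 on the log2 CPM scale, those most like CCL2 were PLLP (r = 1.00), CDC42SE2 (r = 1.00) and CUL5 (r = 0.99). PLLP, encoding plasmolipin, was at 13.6 and 15.4 CPM on dox, against 6.23, 5.03, 7.29 and 5.38 CPM off dox. Those most like CCL20 were ESRRA, ATL3 and ZNRF2 (r = 1.00, 1.00 and 0.99). Those most like CXCL1 were COL4A1, ORC4 and LINC00998 (r = 0.99, 0.98 and 0.98). COL4A1, a collagen of basement membranes, was at 3.06 and 4.78 CPM on dox, against 8.04, 3.97, 5.52 and 3.66 CPM off dox, again with off-dox tumour 1 highest and on-dox tumour 1 lowest. With so many genes and 6 tumours, high correlations are easily found, and nothing is read from them.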

How the data were processed

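Raw counts per gene for 6 tumours were deposited by the authors as 1 table. The submitters' processing notes name STAR, HTSeq, limma and hg19. Tool roles and versions, annotation and strand setting, and what was done with mouse reads, are not stated there. RNA was extracted with Trizol, per the labels' protocols.

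From 57798 lines, 25 with a repeated identifier were removed. Of 24323 missing symbols, 19194 were taken from GENCODE release 29 by identifier, and 27 symbols turned into dates were restored. That release, on another build, gave only names, types, lengths and transcript sequence. Groups came from the sample titles. No libraries were duplicates: chi-square per degree of freedom was 52.7 on dox and 9.65 to 21.8 off dox. The labels do not say whether tumours came from separate mice, so p-values measure the spread between these tumours.

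All genes were fitted with edgeR 4.0.16 in R 4.3.3 (TMM factors, filterByExpr, quasi-likelihood F test). Benjamini-Hochberg adjustment ran over 21308 genes, with a threshold of 0.05. Alternatives used other scalings and filters, DESeq2 1.42.0, voom of limma 3.58.1, a replicate block and fits without each tumour. The replicate block used only tumours 1 and 2 of each group. The members and all gene lists were chosen with earlier results of these data known. Genes named are the members, ME3, the members' receptors, CXCL8 and fixed regulators, and of each pathway list the genes called or else up to 3 with the smallest p. CD74, ENG, CDH5, TEK, EPCAM, KRT8, KRT18 and the 3 collagens are marker genes named after their values were seen. Likeness used log2 CPM with a prior count of 1. The values of 2 genes that this rule names are not reported here.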

Additional observations from a re-analysis of the deposited data

Results flagged for a closer look

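MMP9 in off-dox tumour 4, at 0.305 CPM, stood far below the other 3 off-dox tumours, which were at 1.69 to 1.96 CPM. CCR2 in off-dox tumour 1, at 0.115 CPM, stood far below the other 3, which were at 0.535 to 0.608 CPM. These were the 2 of 52 groups of off-dox values with a single tumour far from the others, and about 1 in 20 groups is marked in this way by chance. Both genes have few counts, and neither is a chemokine.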

How the results depend on the processing

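The fit called 225 genes. It called 770 with no low-count filter, 724 with DESeq2 and 72 to 562 with 1 tumour left out (72 when on-dox tumour 1 was the one left out, and 562 for on-dox tumour 2). Of the members, CCL2 and CCL20 were called under every setting but the replicate block, and 2 to 3 were called with 1 tumour left out. Of the other pathway genes 2 were called, against 5 with no low-count filter, 4 with DESeq2 and 1 to 2 with 1 tumour left out. With the replicate number of tumours 1 and 2 as a replicate block, 0 genes, 0 members and 0 pathway genes were called by edgeR (1492 genes at an unadjusted p under 0.05). The block fit also left out off-dox tumours 3 and 4, so the loss of calls cannot be laid to blocking alone. Over the settings that left out no single tumour, the block among them, log2 fold changes were 2.83 to 3.08 for CCL2 and 1.20 to 1.31 for CCL20. The replicate numbers name tumours and are not said to pair them. Deviations of same-numbered tumours from their group means had r = -0.24 and -0.13. The deviations of the 2 on-dox tumours mirror each other, so these r values cannot decide whether tumours were paired. Signs turned for the log2 fold changes of CCR2 (0.011 with upper-quartile factors, 0.20 with limma voom, 0.51 with the block, -0.33 to 0.24 with 1 tumour left out), CXCL8 (-0.029 with limma voom, -0.37 with the block, -0.76 to 0.54), CXCL3 (-0.079 with the block, -0.034 to 0.75), CCR7 (-0.081 to 0.72), CXCR6 (-0.39 to 0.64) and ACKR4 (-1.09 to 0.47), none of which was called with all 6 tumours by edgeR. The cause was not tested. Low counts limit CXCL10, CX3CL1, CXCL3, CXCL5, CXCL11 and CCL17, and 2 on-dox tumours limit every comparison.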
